A study of Homo sapiens with 4 samples.

Results

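Secreted factors that act on blood and lymphatic vessels were examined in HK-2 cells, an immortalized line from the proximal tubule of the human kidney, before and after induction of PRCC-TFE3. The set was chosen by name, with earlier results of these data known, and holds 10 of the 34080 genes measured. It comprises the vascular endothelial growth factors VEGFA, VEGFB and VEGFC, the placental growth factor PGF, the angiopoietin-like factors ANGPTL2 and ANGPTL4, the angiopoietin ANGPT1, the platelet-derived growth factors PDGFA and PDGFB, and the VEGF co-receptor NRP1. Of these, 8 passed the filter on low counts and were tested among 13569 genes. VEGFC and ANGPT1 did not pass.

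PRCC-TFE3 is a fusion of the PRCC gene and the transcription factor TFE3 that occurs in a type of renal cell carcinoma. All 4 libraries came from HK-2 cells that carried an HA-tagged PRCC-TFE3 transgene under doxycycline control, and the cultures were kept for 24 h in the presence of 0.2 microg/ml doxycycline, called Doxy(+), or in its absence, called Doxy(-). Each group had 2 libraries, numbered 1 and 2. Poly(A) RNA was sequenced from stranded libraries. The question was which vessel-acting factors differed in mRNA level once the fusion was induced. Whether the line was 1 clone was not stated in the sources used here. HK-2 cells that lack the transgene were not analysed here, which means that responses to the antibiotic and to the fusion cannot be told apart. The labels did not say whether libraries of a group came from separate cultures, so the p-values measure the spread between these libraries, which may be technical.

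Tumours and hypoxic tissues recruit vessels by secreting VEGF ligands, which act on tyrosine kinase receptors of endothelial cells, with neuropilins as co-receptors. PDGF ligands act on pericytes and fibroblasts that support the vessel wall, and angiopoietins act on the endothelial receptor TEK. Angiopoietin-like proteins resemble angiopoietins in structure but do not bind TEK, and ANGPTL4 is also an inhibitor of lipoprotein lipase. In tubular cells VEGFA is a classical target of the hypoxia-inducible factors, and ANGPTL4 is a target of both these factors and the peroxisome proliferator-activated receptors (PPARs).

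The libraries held 14042545 to 16618401 estimated counts, of which 12654233 to 15012743 fell on identifiers that matched a gene. A limit of 3 counts corresponded to 0.204 to 0.233 CPM (counts scaled to a library of 1000000 counts), a bound that covers counting error only. TFE3, which the endogenous gene and the transgene share, measured 66.9 and 69.1 CPM in the Doxy(-) libraries against 367 and 322 CPM in the Doxy(+) libraries, a difference of 2.34 on the log2 scale (SE 0.072, edgeR quasi-likelihood adjusted p = 4.78e-05). The added TFE3 counts lay mainly on transcripts not annotated as protein-coding. The identifiers that matched a gene include no transcript of the fusion transgene, so its reads could be assigned to any TFE3 transcript of shared sequence. The annotation of these transcripts therefore does not show whether the induced mRNA was coding. TFE3-204, annotated as a target of nonsense-mediated decay, had 338 and 333 counts against 2921 and 2531. TFE3-203, which has no defined reading frame, had 54.3 and 69.8 counts against 1237 and 1240. The coding transcript TFE3-201 had 464 and 604 counts against 551 and 534, and on coding transcripts alone the log2 fold change of TFE3 was 0.09 (edgeR adjusted p = 0.568). PRCC stood at 50.2 and 47.2 CPM against 47.7 and 60.1 CPM and did not pass the edgeR test (adjusted p = 0.413, with a log2 fold change of 0.15 and an SE of 0.11). All 15 listed target genes of TFE3 and its MiT/TFE relatives were higher in Doxy(+) at an edgeR adjusted p under 0.05, with a median log2 fold change of 1.22. Of all genes tested, 9.76% were higher at this limit and the median was 0.00062. The list was chosen with earlier results of these data known, so it is not an independent check of the induction. Epithelial identity was checked with fixed markers. PAX8, a transcription factor of kidney epithelium, stood at 565 and 573 CPM in Doxy(-) and 584 and 605 CPM in Doxy(+), whereas the keratins KRT8, KRT18 and KRT19 of simple epithelia fell, with log2 fold changes of -0.24, -0.24 and -0.41 (edgeR adjusted p = 0.00376, 0.0142 and 0.000779). Of 8 markers of the differentiated proximal tubule, MME and GGT1 rose (log2 fold changes 1.31 and 0.25, edgeR adjusted p = 0.00264 and 0.0410). SLC34A1 and CDH16 were lower on average and did not pass (log2 fold changes -1.64 and -0.51, edgeR adjusted p = 0.0779 and 0.330). SLC34A1 was low throughout, at 1.32 and 1.09 CPM against 0.233 and 0.521 CPM. LRP2, CUBN, AQP1 and ANPEP were below 1 CPM in every library. The canonical LRP2 transcript was not among the matched identifiers, so the value of LRP2 may miss its mRNA. Endothelial markers were at or near 0, with 7 of 8 below 1 CPM in every library, CDH5 at 0, and a summed level of 4.01 to 4.34 CPM in Doxy(-) and 3.88 to 4.84 CPM in Doxy(+).

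ANGPTL2 and VEGFB were higher in Doxy(+), and VEGFA, ANGPTL4, PDGFB and NRP1 were lower. These 6 of 8 genes had an edgeR quasi-likelihood adjusted p (Benjamini-Hochberg) under 0.05, a limit that 19.3% of all genes tested passed. Of all genes tested in this edgeR fit, 9.76% were higher and 9.53% were lower. With limma on log2(TPM + 1), 3 of the 8 genes (ANGPTL2, VEGFB and PDGFB) passed the same limit, and on coding transcripts alone 5 did, without VEGFA. The shares of all genes that passed in the limma and coding runs are not given here, so these counts stand without a background. With the added requirement of an absolute log2 fold change above 1 in the edgeR fit, ANGPTL2 passed in the higher direction and PDGFB in the lower. These were 2 of 8, against 1.98% of all genes tested (1.50% higher and 0.479% lower). Since the members were chosen with earlier results of these data known, their counts beside these shares are descriptions and do not test the set. The CPM of the groups did not overlap for 8 of 8 genes, but with 2 libraries per group this held for 61.1% of all genes tested. The median log2 fold change of all genes tested was 0.00062. As RNA was taken from whole cultures, fewer cells that express a gene and less RNA per cell cannot be told apart.

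**Figure D1:**
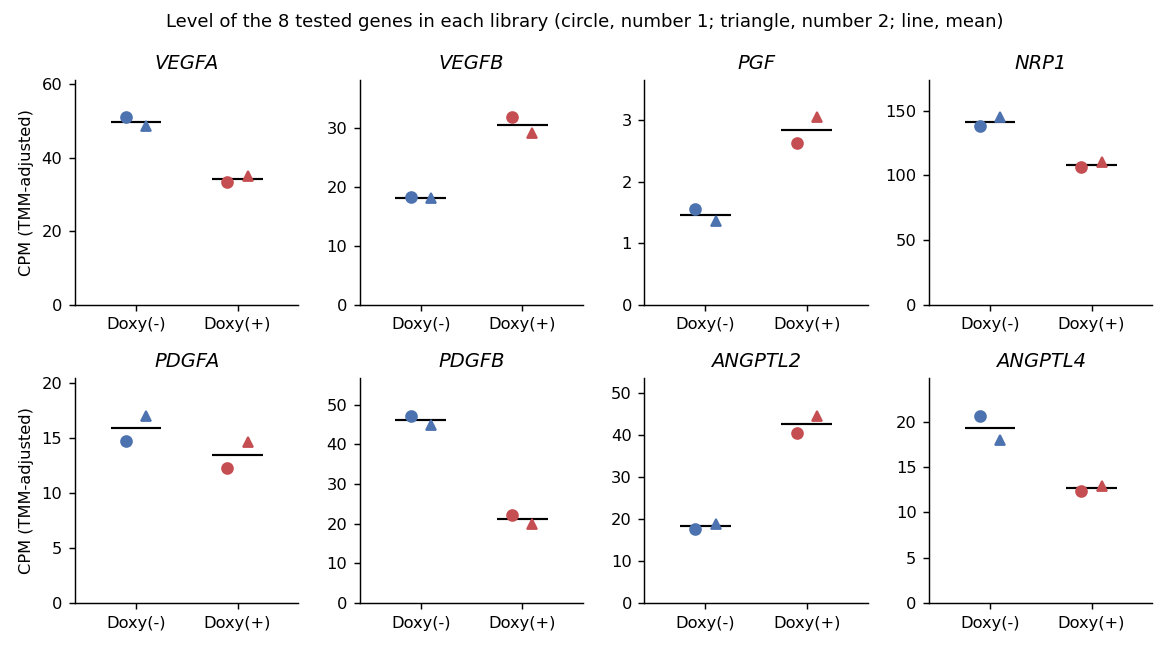
CPM of each tested gene (vertical axis, linear from 0, TMM-adjusted) in the 2 Doxy(-) and 2 Doxy(+) libraries, with circles for number 1, triangles for number 2 and a line at the group mean. ANGPTL2, VEGFB and PGF sit higher in Doxy(+), the other 5 genes sit lower, and PGF and PDGFA did not pass the test.

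VEGFA, the principal ligand of the endothelial receptor KDR and the main driver of vessel growth, lies on chromosome 6 (GRCh38, 43770184 to 43786487, plus strand). Its level was 51.0 and 48.4 CPM in the Doxy(-) libraries and 33.5 and 35.0 CPM in the Doxy(+) libraries. Both Doxy(+) values were below both Doxy(-) values. The group means were 49.7 ± 1.78 and 34.2 ± 1.08 CPM (SD, n = 2 each), so VEGFA fell by 31.1% (log2 fold change -0.54, SE 0.0615, edgeR adjusted p = 0.0028). The call was lost in 3 alternatives. With counts scaled for the length of the transcripts, the log2 fold change was -0.43 and the edgeR adjusted p was 0.0595, and with limma on log2(TPM + 1), where TPM is a length-adjusted transcript share, it was -0.38 with an adjusted p of 0.106. On coding transcripts alone it was -0.63 (SE 0.186, edgeR adjusted p = 0.095).

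VEGFB, a ligand of the receptor FLT1 that is better known for effects on lipid handling and cell survival than for vessel sprouting, moved the other way. It lies on chromosome 11 (64234584 to 64239264, plus strand). Its level was 18.3 and 18.2 CPM in Doxy(-) and 31.9 and 29.2 CPM in Doxy(+). The Doxy(-) libraries were nearly equal and both Doxy(+) libraries lay well above them. From 18.2 ± 0.0985 to 30.6 ± 1.93 CPM (SD, n = 2 each), VEGFB rose 1.67-fold (log2 fold change 0.74, SE 0.0849, edgeR adjusted p = 0.00278).

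PGF, a further ligand of FLT1, lies on chromosome 14 (74941834 to 74955626, minus strand) and was the least abundant of the tested genes. The Doxy(-) libraries gave 1.55 and 1.36 CPM and the Doxy(+) libraries 2.64 and 3.05 CPM, each from 20.0 to 41.0 estimated counts. The groups did not overlap, and the means were 1.46 ± 0.135 and 2.85 ± 0.292 CPM (SD, n = 2 each). PGF did not pass the test (log2 fold change 0.97, SE 0.288, edgeR adjusted p = 0.0679).

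VEGFC, the lymphatic growth factor, lies on chromosome 4 (176683538 to 176792922, minus strand). It was listed at 0 in all 4 libraries, but this was the value of a single non-coding transcript of the gene. The 1 protein-coding transcript that GENCODE 44 gives was not among the identifiers matched here. Some identifiers in the files matched no gene and may include VEGFC transcripts, so the 0 is not a measure of VEGFC mRNA.

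NRP1, a co-receptor that binds VEGFA and VEGFB and is also a receptor for semaphorins, lies on chromosome 10 (33177492 to 33336262, minus strand). Its level was 138 and 145 CPM in Doxy(-) and 107 and 110 CPM in Doxy(+). Both Doxy(+) libraries were lower, with no overlap. NRP1 fell by 23.5%, from 142 ± 4.83 to 108 ± 2.22 CPM (SD, n = 2 each; log2 fold change -0.39, SE 0.0454, edgeR adjusted p = 0.00308). With counts scaled for transcript length the log2 fold change was -0.30 (edgeR adjusted p = 0.0836), and with limma on log2(TPM + 1) it was -0.26 (adjusted p = 0.158).

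Both PDGF ligands of the set were lower on average, and PDGFB alone passed the test. PDGFB, which recruits pericytes to new vessels, lies on chromosome 22 (39223359 to 39244982, minus strand). It stood at 47.2 and 44.9 CPM in Doxy(-) and 22.2 and 19.9 CPM in Doxy(+), so that each Doxy(+) library held under 25 CPM and each Doxy(-) library over 40 CPM. PDGFB fell by 54.3%, from 46.1 ± 1.65 to 21.0 ± 1.65 CPM (SD, n = 2 each; log2 fold change -1.13, SE 0.0795, edgeR adjusted p = 0.000538). The partner chain PDGFA, from chromosome 7 (497258 to 520296, minus strand), had 14.7 and 17.0 CPM in Doxy(-) and 12.3 and 14.6 CPM in Doxy(+). The higher Doxy(+) library nearly reached the lower Doxy(-) library. The difference of -0.24 on the log2 scale (SE 0.133) did not pass the edgeR test, with an adjusted p of 0.266. Whether the changes of PDGFA and PDGFB differed from each other was not tested.

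ANGPTL2, a secreted factor tied to inflammation and vessel growth, had the largest rise of the 8 tested genes of the set. It lies on chromosome 9 (127087348 to 127122635, minus strand). Its level was 17.6 and 18.8 CPM in Doxy(-) and 40.4 and 44.5 CPM in Doxy(+). Each Doxy(+) library was above both Doxy(-) libraries by more than the spread within either group. ANGPTL2 rose 2.33-fold, from 18.2 ± 0.876 to 42.5 ± 2.94 CPM (SD, n = 2 each; log2 fold change 1.22, SE 0.0844, edgeR adjusted p = 0.000518). ANGPTL2 was also among the genes that the study went on to measure by PCR, as was PLAT, named below. That PCR compared UOK124 renal carcinoma cells with and without ARID2, not HK-2 cells with and without doxycycline. The genes for it were chosen partly on these libraries, so the direction of ANGPTL2 here is not independent evidence.

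ANGPTL4, the lipoprotein lipase inhibitor, lies on chromosome 19 (8363289 to 8374370, plus strand). The Doxy(-) libraries gave 20.7 and 18.0 CPM and the Doxy(+) libraries 12.4 and 12.9 CPM, and both Doxy(+) libraries were lower. ANGPTL4 fell by 34.6%, from 19.4 ± 1.90 to 12.7 ± 0.324 CPM (SD, n = 2 each; log2 fold change -0.61, SE 0.111, edgeR adjusted p = 0.0143). The call was lost without Doxy(+) replicate 1 (edgeR adjusted p = 0.0674) and without Doxy(+) replicate 2 (edgeR adjusted p = 0.0505), and also with DESeq2 (adjusted p = 0.0522) and with limma on log2(TPM + 1) (adjusted p = 0.0510). ANGPT1, an activating ligand of TEK on chromosome 8 (107249482 to 107498055, minus strand), had at most 1.02 estimated counts in any library, with 0 in the library Doxy(-) 1, below the limit of 3 counts, so no difference was detectable at this depth.

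**Figure D2:**
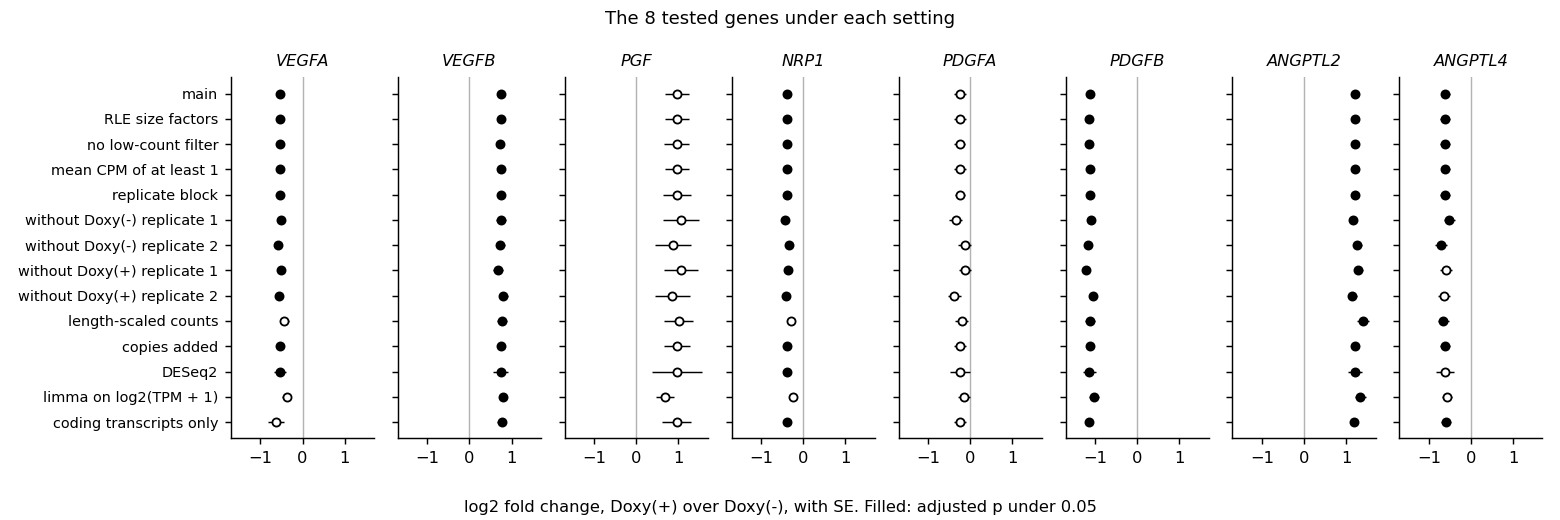
Log2 fold change of Doxy(+) over Doxy(-) (horizontal axis, bars are SE) for each tested gene under the main analysis and 13 alternatives, with filled points for an adjusted p under 0.05. ANGPTL2, VEGFB and PDGFB are filled in every line, NRP1 is open in 2, VEGFA in 3 and ANGPTL4 in 4, and PGF and PDGFA are open throughout.

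The upstream sequence is shown for the higher genes VEGFB and ANGPTL2, since TFE3 and its relatives bind short E-box-like motifs that can be looked for beside a gene start. Both stretches are the 250 bases before the RefSeq gene start (GRCh38.p14), read along the strand of the gene, for VEGFB at chr11:64234334-64234583 (plus strand) and for ANGPTL2 at chr9:127122636-127122885 (minus strand). Capitals mark TCACATGA, a motif bound by MiT/TFE factors, and the ANGPTL2 stretch holds none.
VEGFB: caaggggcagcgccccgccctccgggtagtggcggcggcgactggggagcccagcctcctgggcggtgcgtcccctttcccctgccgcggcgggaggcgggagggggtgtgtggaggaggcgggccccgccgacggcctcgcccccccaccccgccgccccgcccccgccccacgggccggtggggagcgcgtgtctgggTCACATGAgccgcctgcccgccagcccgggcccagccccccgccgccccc
ANGPTL2: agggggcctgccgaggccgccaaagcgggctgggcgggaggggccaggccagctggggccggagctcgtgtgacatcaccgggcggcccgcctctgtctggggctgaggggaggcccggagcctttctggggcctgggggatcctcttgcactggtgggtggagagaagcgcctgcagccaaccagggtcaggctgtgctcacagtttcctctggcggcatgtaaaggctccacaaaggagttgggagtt
The VEGFB stretch had 82.8% and the ANGPTL2 stretch 68.4% G and C. Windows from 250 bases before to 50 bases after the start were searched on both strands for 3 motifs. RefSeq gave such windows for 6 of the 10 genes (VEGFB, VEGFC, PGF, PDGFA, ANGPTL2 and ANGPTL4), 10 windows in all, among 35116 windows of all genes. TCACATGA occurred in 1.0% of all windows and, in this set, in VEGFB alone, where it began 50 bases before the start. CACGTG, the E-box core, occurred in 7.26% of all windows and in 0 of the 10 windows of the set. ACGTG, the core letters of the hypoxia response element, which also lie inside CACGTG, occurred in 21.4% of all windows and in this set only in ANGPTL4, on the minus strand 234 bases before the start. A match describes letters only and does not show binding.

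Levels of different genes were compared as TPM of their protein-coding transcripts, which adjusts for length. Transcripts not annotated as protein-coding were set aside, since short ones carried much of the TPM of VEGFB and ANGPTL2. In Doxy(-), NRP1 was the most abundant at 54.9 and 58.4 coding TPM, followed by PDGFB at 25.6 and 25.2. VEGFA (22.0 and 15.6 coding TPM), VEGFB (16.0 and 14.4) and ANGPTL4 (16.0 and 14.5) overlapped. PDGFA (9.60 and 10.9 coding TPM) stood above ANGPTL2 (6.78 and 7.22), and PGF was lowest at 1.12 and 1.21. In Doxy(+), NRP1 stayed highest at 44.3 and 50.4 coding TPM and VEGFB came second at 29.5 and 27.0. ANGPTL2 (16.0 and 17.3 coding TPM) stood just above VEGFA (13.2 and 15.0). PDGFB (13.2 and 10.9 coding TPM), ANGPTL4 (10.4 and 10.5), PDGFA (8.15 and 9.78) and PGF (1.92 and 2.74) followed.

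The order depended on which transcripts were counted. With all transcripts, VEGFB reached 53.8 and 47.5 TPM in Doxy(+), of which the intron-retaining VEGFB-204 made up 24.4 and 20.5 TPM, and so overlapped with NRP1. ANGPTL2 reached 25.2 and 32.3 TPM in Doxy(+) with all transcripts, of which ANGPTL2-204, a transcript of 312 bases with 17.2 and 29.3 counts and no defined reading frame, made up 9.25 and 15.0 TPM.

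**Figure D3:**
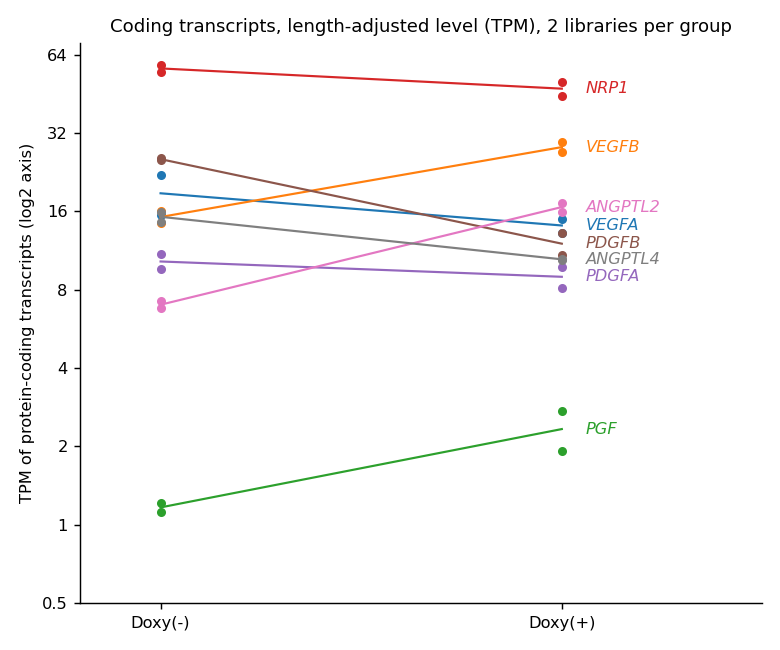
TPM of the protein-coding transcripts of the 8 tested genes (vertical axis, log2 scale) in Doxy(-) and Doxy(+), with a point per library and a line between group means. NRP1 stays highest and PGF lowest, VEGFB moves above VEGFA and PDGFB to second place, and ANGPTL2 moves from below PDGFA to just above VEGFA.

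Within the VEGF ligands that signal through KDR and FLT1, the balance of the mRNAs differed between the groups. The ratio of VEGFB to VEGFA, as coding TPM, was 0.728 and 0.927 without doxycycline and 2.23 and 1.80 with it. By this measure VEGFA was the more abundant in both Doxy(-) libraries and VEGFB in both Doxy(+) libraries. With all transcripts the ratios were 0.978 and 1.05 against 2.41 and 2.27, so the order in Doxy(-) depended on the transcripts counted. The coding TPM of VEGFA was itself uncertain. Its short transcript VEGFA-201 had 6.05 and 0.370 TPM in the Doxy(-) pair, and the canonical VEGFA transcript was not among the identifiers. VEGFA made up 56.2% and 49.9% of the summed coding TPM of VEGFA, VEGFB and PGF in Doxy(-) and 29.6% and 33.5% in Doxy(+), whereas VEGFB made up 40.9% and 46.2% against 66.1% and 60.4%. PGF was a small part, from 2.85% to 6.12% over the 4 libraries. The summed coding TPM of the 3 ligands came to 39.1 and 31.2 without doxycycline and 44.6 and 44.8 with it. VEGFC and VEGFD were left out of this sum, the first because no coding transcript of it was matched and the second because it had only 1 to 2 counts per library.

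The ratio of ANGPTL2 to ANGPTL4, also as coding TPM, was 0.424 and 0.498 in the Doxy(-) pair and 1.53 and 1.64 in the Doxy(+) pair. ANGPTL4 was therefore the more abundant angiopoietin-like mRNA in both Doxy(-) libraries and ANGPTL2 in both Doxy(+) libraries. The ratio of PDGFA to PDGFB was 0.376 and 0.433 in the Doxy(-) pair of libraries and 0.619 and 0.900 in the other pair, so the PDGF chains were nearer to each other in Doxy(+) but PDGFB stayed the more abundant in all 4 libraries. With 2 libraries against 2, an exact two-sided permutation test of such a ratio cannot give a p below 0.333, and the ratios are given as descriptions.

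The estimated counts of the genes were also divided among their annotated transcripts. For VEGFA, protein-coding transcripts held 425 and 362 counts in the Doxy(-) pair against 213 and 279 in the Doxy(+) pair, and transcripts annotated as retaining an intron or otherwise non-coding held 232 and 350 against 218 and 191. The coding counts were lower in both Doxy(+) libraries, while the coding share of the gene, 64.7% and 50.9% against 49.4% and 59.4%, overlapped between the groups. VEGFA-205 alone, the most abundant coding transcript in Doxy(-), went from 214 and 235 counts to 67.1 and 101 counts. The canonical VEGFA transcript of GENCODE was not among the identifiers in the files, and its reads may have been assigned to other VEGFA transcripts or to none.

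For VEGFB, coding transcripts made up 69.8% and 71.1% of the counts of the Doxy(-) pair and 70.8% and 73.1% of those of the Doxy(+) pair, so coding and intron-retaining transcripts were higher together. The intron-retaining transcript VEGFB-204 had 71.3 and 77.2 counts in Doxy(-) and 120 and 106 in Doxy(+). In ANGPTL2, a single coding transcript, ANGPTL2-202, held nearly all counts, with 220 and 269 in Doxy(-) and 503 and 569 in Doxy(+). In PDGFB, PDGFB-201 had 549 and 563 counts in Doxy(-) and 241 and 244 in Doxy(+), not adjusted for library size. The division of NRP1 was unstable between libraries of 1 group. NRP1-206 had 43.5 and 1045 counts in Doxy(-) and NRP1-201 had 771 and 67.5, and both encode an open reading frame of the same length, so their split is not read as a difference.

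**Figure D4:**
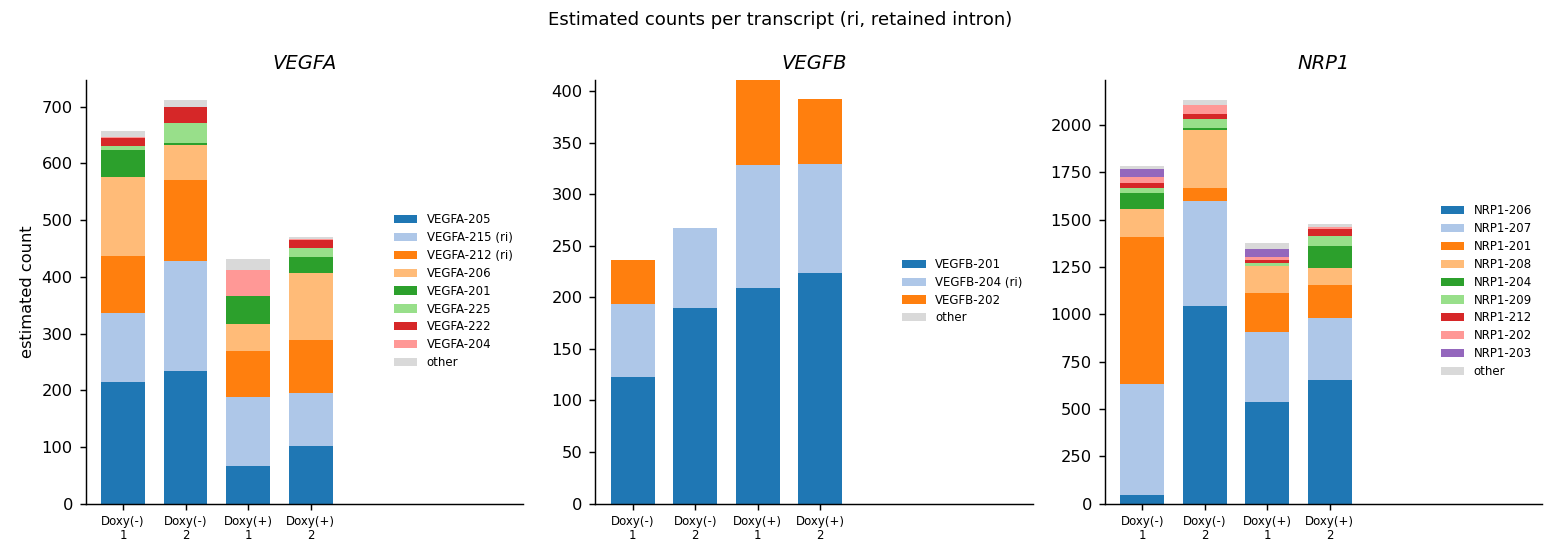
Stacked bars of estimated counts per annotated transcript (vertical axes, linear from 0) for VEGFA, VEGFB and NRP1 in each of the 4 libraries, not adjusted for library size. VEGFB parts are larger together in Doxy(+), VEGFA-205 is smaller in Doxy(+), and NRP1-206 and NRP1-201 swap places between the 2 Doxy(-) libraries.

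The receptors of these ligands were mostly near or below the limit of detection. KDR, the main VEGFA receptor, had 0 counts in all 4 libraries, which allows up to 0.204 to 0.233 CPM. FLT1, the receptor of VEGFA, VEGFB and PGF, gave 0.155 and 0.204 CPM in the Doxy(-) pair and 0.233 and 0.372 CPM in the Doxy(+) pair, from 2.08 to 5.20 counts. FLT4, the VEGFC receptor, was measurable at 5.12 and 5.72 CPM against 6.91 and 6.55 CPM and did not pass the test (log2 fold change 0.31, edgeR adjusted p = 0.256). PDGFRA had 1 to 4 counts, PDGFRB 1 to 3 and TEK 0 to 2 over the 4 libraries. NRP2, the co-receptor of VEGFC, was abundant and lower in Doxy(+), at 205 and 211 CPM against 131 and 127 CPM (log2 fold change -0.69, edgeR adjusted p = 0.000308).

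Other ligands of the same families gave a mixed account. PDGFC, a PDGF ligand that needs proteolytic activation, fell from 80.5 and 92.7 CPM to 56.4 and 46.3 CPM (log2 fold change -0.76, edgeR adjusted p = 0.00649). It was the only 1 of 5 further PDGF ligands and receptors that could be tested. The angiopoietin ANGPT2 was near the floor, with 2.76 to 9.87 estimated counts. The canonical ANGPT2 transcript was not among the matched identifiers, so this value may miss its mRNA. Of 13 further genes of the angiopoietin family and its receptors, the 2 tested were the integrin chains that bind such ligands. ITGB1 was lower, at 1163 and 1221 CPM against 1002 and 1015 CPM (log2 fold change -0.24, edgeR adjusted p = 0.00506), and ITGA5 was higher, at 222 and 215 CPM against 255 and 259 CPM (log2 fold change 0.23, edgeR adjusted p = 0.00751). Both changes were small, and both calls were lost with limma on log2(TPM + 1). The call of ITGA5 was also lost with length-scaled counts and without either Doxy(+) replicate.

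Among 16 genes that process VEGF and PDGF ligands or serve as co-receptors, 14 were tested, of which 1 rose, 6 fell and 7 did not pass, with a median log2 fold change of -0.12. For this list and those below, the shares of all genes tested were 9.76% higher and 9.53% lower at the same edgeR limit. CCBE1 and ADAMTS3, the secreted partners that mature VEGFC, were both lower. CCBE1 stood at 74.6 and 73.4 CPM in Doxy(-) and 42.4 and 43.7 CPM in Doxy(+) (log2 fold change -0.78, edgeR adjusted p = 0.000516), a call that was lost with length-scaled counts and with limma on log2(TPM + 1). ADAMTS3 stood at 133 and 141 CPM against 88.5 and 84.6 CPM (log2 fold change -0.66, edgeR adjusted p = 0.000741). PLAT, the tissue plasminogen activator, which cleaves PDGFC, fell from 69.4 and 63.8 CPM to 40.0 and 37.5 CPM (log2 fold change -0.78, edgeR adjusted p = 0.00113). ADAMTS1, a protease that binds VEGFA, fell from 332 and 322 CPM to 209 and 210 CPM (log2 fold change -0.64, edgeR adjusted p = 0.000237).

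Of 18 other angiogenic growth factors, 13 were tested, of which 3 rose, 4 fell and 6 did not pass, with a median log2 fold change of -0.15. HBEGF, a ligand of the epidermal growth factor receptor, fell from 51.7 and 49.3 CPM to 25.7 and 23.4 CPM (log2 fold change -1.04, edgeR adjusted p = 0.000521) and was the 1 gene of this list past both limits. CCN1, a matrix protein that engages integrins, fell from 1335 and 1326 CPM to 905 and 967 CPM (log2 fold change -0.51, edgeR adjusted p = 0.000615). MDK, a heparin-binding growth factor, rose from 181 and 180 CPM to 232 and 238 CPM (log2 fold change 0.38, edgeR adjusted p = 0.0013), and ADM, a vasodilator peptide, rose from 20.1 and 18.4 CPM to 29.6 and 30.3 CPM (log2 fold change 0.64, edgeR adjusted p = 0.0045).

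Of 18 genes listed as angiogenesis inhibitors, 13 were tested. SEMA3B matched no identifier and SEMA3E had no coding transcript among those matched, so neither is read as low. Of the 13 tested, 5 fell and 0 rose at an edgeR adjusted p under 0.05, with a median log2 fold change of -0.15. Of all genes tested, 9.76% were higher and 9.53% lower at this limit, so among 13 genes the 0 is not read as a result about inhibitors. Other runs on the same 4 libraries (unadjusted edgeR p under 0.05, DESeq2 and limma) also gave 0 that rose, and limma called 2 lower rather than 5. THBS1, a matrix glycoprotein that restrains vessel growth, went from 139 and 136 CPM to 35.3 and 34.6 CPM. Its log2 fold change of -1.98 (edgeR adjusted p = 3.35e-05) exceeded in size those of all tested members of the set. ADAMTS9 fell from 27.8 and 28.6 CPM to 19.7 CPM in both Doxy(+) libraries (log2 fold change -0.51, edgeR adjusted p = 0.00707), and SPARC, a collagen-binding matrix protein, fell from 537 and 532 CPM to 461 and 462 CPM (log2 fold change -0.21, edgeR adjusted p = 0.00466). ADAMTS1 is counted in this list too.

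**Figure D5:**
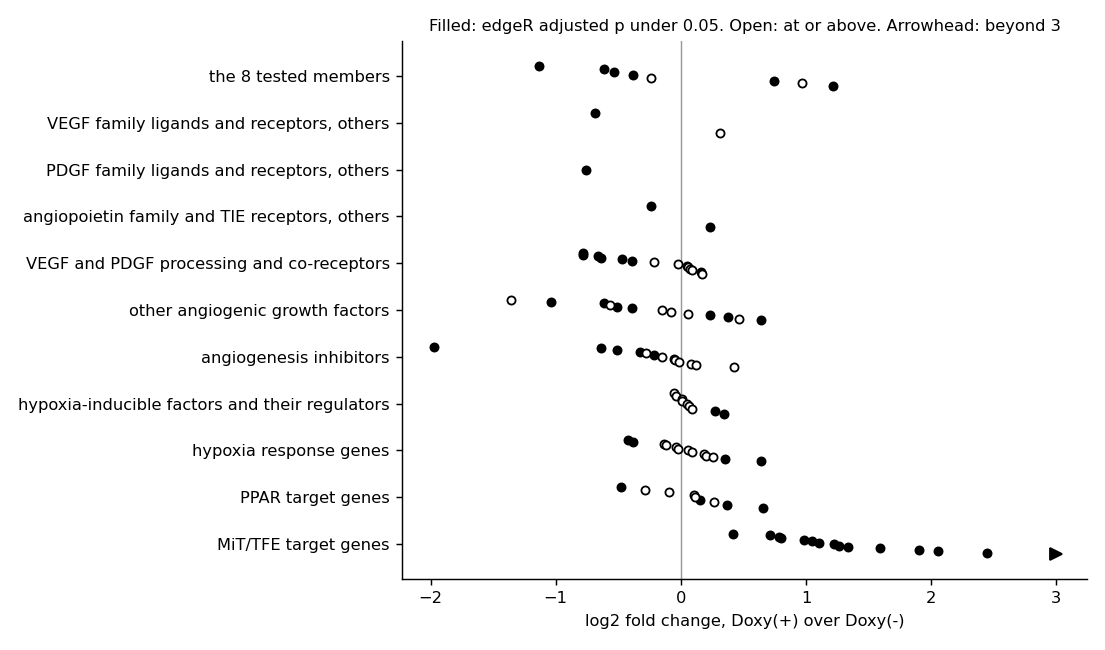
Log2 fold change of Doxy(+) over Doxy(-) (horizontal axis) for each tested gene of the set and of 10 lists, with filled points for an edgeR adjusted p under 0.05 and an arrowhead for 1 MiT/TFE target beyond the axis. The set has filled points on both sides of 0, the angiogenesis inhibitors have filled points only below 0, and the MiT/TFE targets are filled throughout and above 0.

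The regulators that VEGFA and ANGPTL4 are known to respond to were examined through 3 lists. Of 9 hypoxia-inducible factors and regulators, all were tested, 2 rose and 0 fell in the edgeR test, with a median log2 fold change of 0.05. Of all genes tested, 9.76% were higher and 9.53% lower at this limit, so among 9 genes these counts are not read as a result about hypoxia regulators. Other runs on the same 4 libraries (unadjusted edgeR p under 0.05, DESeq2 and limma) also gave 0 that fell, and limma called 1 higher rather than 2. EPAS1, which encodes HIF-2 alpha, rose from 330 and 340 CPM to 424 and 428 CPM (log2 fold change 0.35, edgeR adjusted p = 0.0013), EGLN2, a prolyl hydroxylase that marks these factors for degradation, had a log2 fold change of 0.28 (edgeR adjusted p = 0.0145), and HIF1A did not pass (log2 fold change 0.01, edgeR adjusted p = 0.867).

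Of 14 hypoxia response genes, 13 were tested, of which 2 rose and 2 fell. LDHA, a glycolytic enzyme, fell from 534 and 533 CPM to 398 and 400 CPM (log2 fold change -0.42, edgeR adjusted p = 0.000447), and the glucose transporter SLC2A1 fell from 210 and 201 CPM to 156 and 159 CPM (log2 fold change -0.38, edgeR adjusted p = 0.00197). DDIT4, an inhibitor of mTORC1 signalling, had a log2 fold change of 0.35 (edgeR adjusted p = 0.00721), and ADM, given above, is counted in this list too. The median log2 fold change of the hypoxia response genes was 0.05.

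Of 13 PPAR target genes, 9 were tested, of which 3 rose and 1 fell, with a median log2 fold change of 0.11. PLIN2, a lipid droplet coat protein, rose from 93.9 and 94.5 CPM to 149 and 148 CPM (log2 fold change 0.66, edgeR adjusted p = 0.000326). CPT1A, which admits fatty acids into mitochondria, had a log2 fold change of 0.37 (edgeR adjusted p = 0.0164), and HADHA, an enzyme of fatty acid oxidation, one of 0.16 (edgeR adjusted p = 0.0246). ACADVL, another enzyme of that pathway, fell from 376 and 364 CPM to 264 and 266 CPM (log2 fold change -0.48, edgeR adjusted p = 0.000521). ANGPTL4 was thus lower while PLIN2 was higher, and whether the 2 changes share a regulator was not tested. Over all lists named here, 13 of the 24 genes named for passing the test kept an adjusted p under 0.05 in every alternative analysis run. The calls of ITGA5, EGLN2, CPT1A and HADHA were lost without either Doxy(+) replicate, with the highest adjusted p at 0.0801, 0.0925, 0.262 and 0.174 over the alternatives. Each of these calls was also lost with limma. Those of ITGA5, EGLN2 and CPT1A were lost with length-scaled counts too, those of CPT1A and HADHA with DESeq2, and that of HADHA on coding transcripts alone. Those of SPARC and DDIT4 were lost without Doxy(+) replicate 1, and that of SPARC also with limma, at up to 0.0542 and 0.0631. Those of ADAMTS9, CCBE1, ITGB1 and SLC2A1 were lost with limma, and those of ADAMTS9 and CCBE1 also with length-scaled counts, at up to 0.164, 0.126, 0.0561 and 0.0507. That of ACADVL was lost on coding transcripts alone, at 0.523.

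Markers of other cells were summed beside these results. Pericyte and fibroblast markers summed to 176 and 190 CPM in Doxy(-) and 205 and 203 CPM in Doxy(+). The matrix protein LUM held 160 and 174 against 185 and 184 CPM of this sum, and 3 of 6 markers were below 1 CPM in every library. Leukocyte markers summed to 144 and 150 CPM against 191 and 190 CPM, nearly all of it CD68, a lysosomal protein (log2 fold change 0.37, edgeR adjusted p = 0.00208), with the defining markers PTPRC and LYZ below 1 CPM. Renal epithelial markers summed to 1954 and 1945 CPM against 1693 and 1719 CPM and proximal tubule markers to 79.3 and 78.5 CPM against 94.7 and 100 CPM. GGT1 held most of the proximal tubule sum, with 68.7 and 69.4 CPM against 78.1 and 86.0 CPM. The part of these shifts in the levels of the vessel-acting factors was not tested.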

How the data were processed

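Poly(A) RNA of 4 libraries was analysed, 2 per group. The authors deposited estimated counts and TPM per transcript, with transcript lengths. The methods describe quantification with RSEM, whereas the columns are those that kallisto writes, so the quantifier is uncertain. The submitters' processing notes name Trim Galore 0.6.6, cutadapt 2.5 and STAR 2.7.9a. The deposited expected counts were summed per gene after matching of 150691 of 180253 transcript identifiers to GENCODE 44 (83.6%), and unmatched identifiers held 9.66% to 9.89% of counts per library. How reads were assigned between transcripts that share sequence can move counts between transcripts of a gene. The counts, rounded to whole numbers, were scaled by TMM and tested with edgeR 4.0.16 (quasi-likelihood, filterByExpr, Benjamini-Hochberg) in R 4.3.3, with limits of an adjusted p of 0.05 and an absolute log2 fold change of 1. The 2 residual degrees of freedom were supplemented by the spread shared across genes. TPM, as deposited, were summed over the protein-coding transcripts of a gene to compare levels between genes, a choice made after the values were seen, with sums over all transcripts beside them. DESeq2 1.42.0 and limma 3.58.1 on log2(TPM + 1) were alternatives. Counts of protein-coding transcripts only were a further alternative, added after seeing the data. The edgeR steps were tested on simulated data. Libraries of 1 group differed by more than sampling noise (chi-square per degree of freedom 4.03 and 2.91) and by less than libraries of different groups (18.3 and 20.3).

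All 10 genes of the set were reported, and from each list up to 4 genes with the smallest p among those at an adjusted p under 0.05 were eligible to be named, besides receptors with a level in each library, TFE3 and PRCC. HIF1A, VEGFD, ANGPT2 and the cell markers were named outside this rule. The members and lists were chosen with earlier results of these data known. Promoter windows were read from RefSeq (GRCh38.p14).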

Additional observations from a re-analysis of the deposited data

How the results depend on the processing

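ANGPTL2, PDGFB and VEGFB kept their direction and an adjusted p under 0.05 in 13 of 13 alternatives, and no tested gene of the set changed direction. The log2 fold change ranged from 1.15 to 1.40 for ANGPTL2, from -1.21 to -1.03 for PDGFB and from 0.68 to 0.81 for VEGFB. VEGFA kept its call in 10 of 13 (-0.63 to -0.38), NRP1 in 11 of 13 (-0.42 to -0.26) and ANGPTL4 in 9 of 13 (-0.71 to -0.51). PGF and PDGFA passed in 0 of 13. With limma on log2(TPM + 1), 3 genes of the set were at an adjusted p under 0.05 rather than 6, and 149 genes of all tested were past both limits rather than 268, of which 117 were higher and 32 lower. An adjusted p limit of 0.01 left 158. Calls in the lists fell with limma to 0 for the angiopoietin family, 3 for processing, 2 for inhibitors, 1 for hypoxia-inducible factors and 2 for PPAR targets, and with length-scaled counts to 1, 3, 3 and 1 for the first 4 of these. DESeq2 gave 2 for PPAR targets, as did coding transcripts only, an alternative chosen after seeing the data. Leaving out each library in turn gave 1 to 2 calls for the angiopoietin family, 4 to 7 for processing, 3 to 5 for inhibitors, 1 to 2 for hypoxia-inducible factors and 2 to 5 for PPAR targets, and 5 to 6 for the set. Why these calls differ was not tested.

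The labels do not say that a replicate number marks a shared day or batch, and the deviations of same-numbered libraries from their group means correlated at -0.032 across 13569 genes. With the replicate block, 204 genes were higher and 68 lower past both limits, and the set kept 6 and 2 calls. Depth limited ANGPT1, PGF and most receptors.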
